A study of Mus musculus with 16 samples.

Results

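Replication and mitosis genes were compared across housing and age in the mammary glands of mice that carry a breast tumour transgene. The set was a list of 46 cell cycle genes: 27 that act at the G1/S transition or in S phase and 19 that act in G2 and mitosis. It was chosen by function, and each gene was read from the probe set of highest mean level among those named for it alone. A probe set is a group of short oligonucleotides on the array that reports on a transcript. Of the 46 genes, 45 were measured, 27 of S phase and 18 of mitosis, among 18193 genes in all. Ccnb1, the gene of a mitotic cyclin, had no probe set with its symbol alone and was not analysed here.

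The 16 samples were total RNA of mammary glands from female FVB/N mice, each hybridised to 1 Affymetrix array. All mice were homozygous for a transgene in which the C3(1) fragment, from the promoter of rat prostatic steroid binding protein, drives SV40 large T antigen, so the controls carried the transgene too and no group without it was compared. After weaning the mice were kept singly (isolated) or in groups (grouped), and glands were taken in estrus during the dark phase at 15 or 20 weeks of age. Each of the 4 combinations of housing and age had 4 arrays. The whole gland holds epithelium, fat, stroma and, in some pieces, lymph node or muscle, so that more cells of a type and more RNA per cell cannot be told apart.

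A cell that enters the cycle first loads the Mcm helicase at replication origins with Cdc6 and Cdt1, fires the origins in S phase, and then builds a spindle under cyclin A, cyclin B and Cdk1. E2F factors, held in check by the retinoblastoma protein family, drive the transcription of many S phase genes, and SV40 large T antigen binds that family. Many genes of mitosis are instead read late in the cycle through a promoter element known as the CHR, often beside CCAAT boxes.

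The promoters of the members carried these elements unevenly. In the RefSeq sequences of the GRCm38.p6 assembly, 37 of the 45 members had a promoter window of 250 bases before to 50 bases after a start site. Both strands were searched for E2F matches (TTTCCCGC, TTTGGCGC, TTTCGCGC or TTTGCCGC), for CHR matches (TTTGAA or TTCGAA, the latter reading the same on both strands) and for CCAAT; the E2F words can overlap one another on opposite strands. An E2F match lay in 10 of 26 windows of S phase members (38.5%) and in 1 of 14 windows of mitotic members (7.14%), against 2.26% of all 32851 windows. A CHR match lay in 4 of the 26 S phase windows (15.4%) and in 12 of the 14 mitotic windows (85.7%), against 19.2% of all windows. CCAAT lay in 69.2% of the S phase windows, 85.7% of the mitotic windows and 37.4% of all windows. These matches are letters in a sequence and show no binding. The list was drawn up as E2F-driven genes of replication and mitosis. A higher share of E2F matches than in all windows can therefore follow from that choice and is no result of these arrays.

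The stretches below show both elements in the 3 S phase and the 3 mitotic members that rose with age in both housing conditions and whose match lay nearest the start site among matches wholly within the 150 bases before it. Matches after the start site, such as the E2F match of Ezh2 or the CHR match of Ccnb2, are not shown. Each holds the 150 bases before the start site, 5′ to 3′ on the gene's strand. For Mcm6, a helicase subunit (chr1:128359706-128359855, minus strand), Cdc6, a loader of the helicase (chr11:98908001-98908150, plus strand), and Pola1, the catalytic subunit of DNA polymerase alpha (chrX:93632156-93632305, minus strand), capitals mark E2F matches.
Mcm6: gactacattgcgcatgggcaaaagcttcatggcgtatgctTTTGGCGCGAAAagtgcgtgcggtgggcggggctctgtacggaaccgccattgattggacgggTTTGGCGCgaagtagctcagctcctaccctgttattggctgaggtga
Cdc6: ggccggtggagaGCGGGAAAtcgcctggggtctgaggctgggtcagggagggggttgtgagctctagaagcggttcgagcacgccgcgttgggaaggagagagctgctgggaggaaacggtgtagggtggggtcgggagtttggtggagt
Pola1: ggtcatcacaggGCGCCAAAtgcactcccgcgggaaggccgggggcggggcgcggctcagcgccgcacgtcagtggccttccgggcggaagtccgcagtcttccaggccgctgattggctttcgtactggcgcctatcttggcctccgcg

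For Cdk1, the mitotic kinase (chr10:69352913-69353062, minus strand), Cdc20, an activator of the anaphase-promoting complex (chr4:118437344-118437493, minus strand), and Kif11, a spindle motor (chr19:37376232-37376381, plus strand), capitals mark CHR matches.
Cdk1: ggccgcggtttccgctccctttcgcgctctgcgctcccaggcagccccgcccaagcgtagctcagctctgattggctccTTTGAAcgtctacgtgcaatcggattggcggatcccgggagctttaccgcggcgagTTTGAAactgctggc
Cdc20: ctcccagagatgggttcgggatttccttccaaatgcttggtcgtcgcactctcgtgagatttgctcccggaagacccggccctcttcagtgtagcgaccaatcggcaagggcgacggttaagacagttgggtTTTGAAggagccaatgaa
Kif11: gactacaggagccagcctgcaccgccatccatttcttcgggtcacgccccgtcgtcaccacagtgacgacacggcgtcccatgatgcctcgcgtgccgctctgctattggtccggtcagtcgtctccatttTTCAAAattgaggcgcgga
The Cdk1 stretch also holds an E2F match left in lower case. The longest run of capitals in the Mcm6 stretch is a pair of overlapping E2F matches on opposite strands.

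The arrays of the younger and older mice differed as a whole before any gene was considered. Array medians of the deposited log2 levels lay between 8.09 and 8.11 at 15 weeks and between 8.31 and 8.34 at 20 weeks. The median gene was 0.23 (grouped) and 0.24 (isolated) higher at 20 weeks, and the 45 bacterial control probe sets were 0.17 and 0.15 higher. The sample titles name no run or batch. The age of the mice and any difference in the handling of their arrays therefore cannot be told apart. Comparisons of age therefore used levels relative to the median gene of the same array, called net levels here, in log2 units. Without this step 10196 of all genes passed as higher and 1166 as lower at 20 weeks in grouped mice, and 10422 and 1697 in isolated mice; with it, 3418 and 3381, and 4773 and 4240. The level of a probe set depends on its probes, so no level was compared between genes. Every member lay above the lower quartile of every array.

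With age, the members rose in both housing conditions. In grouped mice all 45 had a higher net level at 20 weeks than at 15 weeks, where 51.1% of all genes did, and 37 of the 45 passed the test (limma with Benjamini-Hochberg adjustment over all genes, threshold 0.05). In the same direction 18.8% of all genes passed. The median member difference was 0.59 (1.5-fold), against 0.01 for all genes. In isolated mice all 45 differences were again above 0, as were 51.7% of all genes, 41 of the 45 rose, against 26.2% of all genes, and the median was 0.6 (1.52-fold). The 4 arrays at 20 weeks all lay above the 4 at 15 weeks for 25 members in grouped mice (17.5% of all genes) and for 38 in isolated mice (25.2% of all genes).

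**Figure D1:**
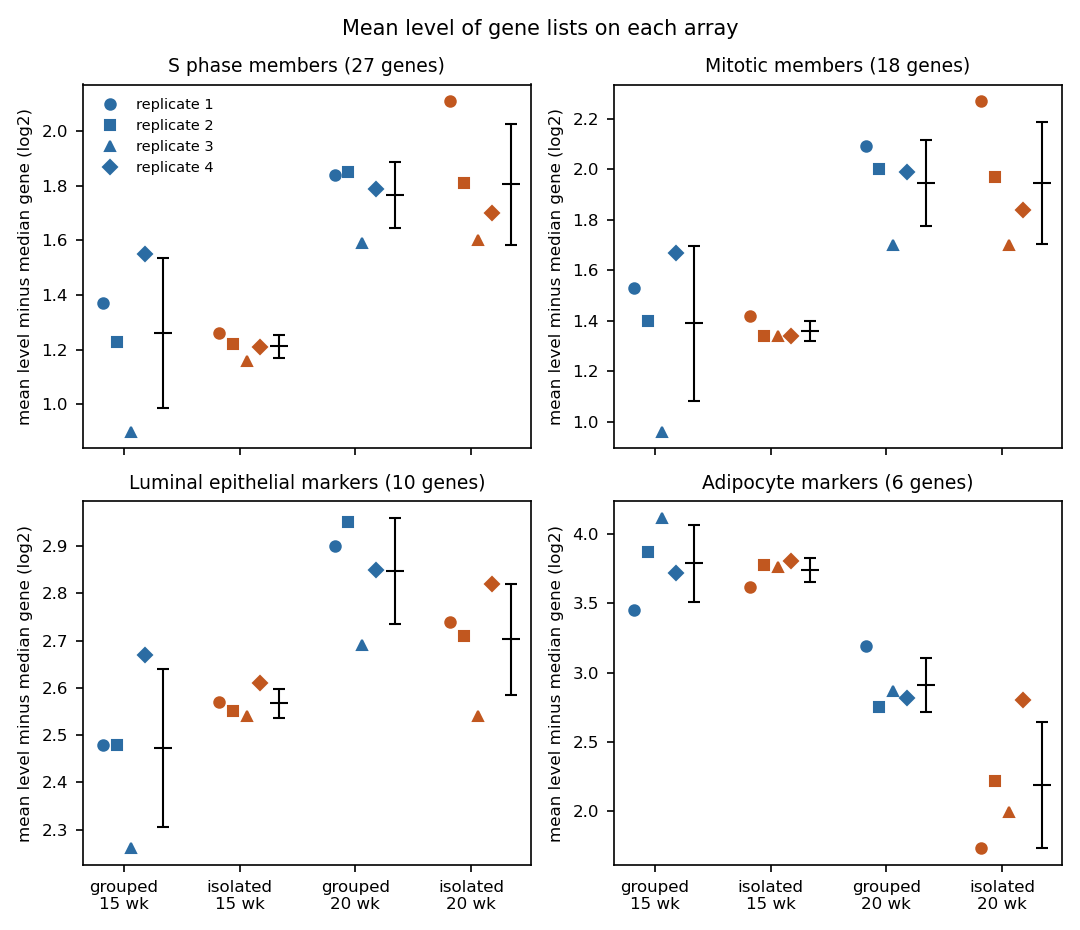
Mean net level (log2 units above the median gene of the same array) of the S phase members, mitotic members, luminal epithelial markers and adipocyte markers in each of the 16 arrays, with the group mean and SD (n = 4). The mean over all members lay between 0.92 and 1.59 in grouped and 1.23 and 1.33 in isolated mice at 15 weeks, and between 1.64 and 2.17 at 20 weeks, while the adipocyte markers were lower at 20 weeks.

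The number of calls in grouped mice varied with single arrays and with a measure of RNA quality as a covariate. Of the 37 calls, 23 were left without grouped replicate 1 at 20 weeks and 23 without replicate 2, all of them among the 37. Calls over all genes in those fits are not given here, so a loss particular to the members is not shown. With the difference between the 3′ and 5′ probe sets of Gapdh as a covariate 3 members passed; all 45 differences stayed above 0 there, with medians of 0.49 (S phase) and 0.52 (mitotic), and the median SE of a member went from 0.15 to 0.22. That difference was −0.06 ± 0.02 (SD, n = 4) in grouped mice at 15 weeks and −0.01 ± 0.03 at 20 weeks, and age accounted for a share of 0.53 of its variance over these arrays (r squared), so this fit separates age from it only in part.

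The helicase and its loaders rose together. All 6 subunits Mcm2 to Mcm7, the ring that unwinds DNA at the fork, rose in both housing conditions, with differences of 0.5 to 0.73 in grouped and 0.38 to 0.67 in isolated mice. For Mcm2 the net levels at 15 weeks were 2.69, 2.22, 2.05 and 2.67 in grouped and 2.5, 2.45, 2.35 and 2.39 in isolated mice. At 20 weeks they were 3.15, 3.08, 2.9 and 3.15 in grouped and 3.39, 3.13, 2.65 and 2.96 in isolated mice. No older array fell within the range of the younger arrays of its housing, and the differences were 0.66 (SE 0.14, limma adjusted p = 0.00681) and 0.61 (SE 0.13, adjusted p = 0.00438). The other Mcm2 probe set differed by 0.25 in grouped and 0.18 in isolated mice. It passed in neither (limma over all probe sets, adjusted p = 0.0583 and 0.128).

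Mcm3 had net levels of 2.17, 1.79, 1.44 and 2.18 in grouped mice at 15 weeks and of 2.62, 2.68, 2.49 and 2.69 at 20 weeks, without overlap, and rose by 0.73 (SE 0.15, limma adjusted p = 0.00579). Cdc6, which loads the helicase, ran from −0.04 to 0.12 in isolated mice at 15 weeks and from 0.73 to 1.34 at 20 weeks. It rose by 0.95 (SE 0.12, 1.93-fold, limma adjusted p = 0.00024) in isolated and by 0.77 (SE 0.2, 1.7-fold, adjusted p = 0.0138) in grouped mice. Cdt1, the other loader, rose by 0.76 and 0.68 in grouped and isolated mice. Subunits of the GINS complex, which activates the helicase with Cdc45, gave smaller values with their probe sets of highest mean: Gins1 differed by 0.22 and 0.28 and did not pass in either housing (adjusted p = 0.084 and 0.107). Gins2 differed by 0.08 in grouped mice (adjusted p = 0.611) and rose by 0.4 in isolated mice (adjusted p = 0.0496), and Cdc45 differed by 0.34 in grouped mice (adjusted p = 0.102) and rose by 0.53 in isolated mice (limma). In the test over all probe sets, the other Gins2 probe set rose by 0.43 in grouped and 0.81 in isolated mice. The other Gins1 probe set rose by 0.21 and 0.32, and the other Cdc45 probe set differed by −0.05 and −0.1 and did not pass.

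With the probe sets of highest mean, the polymerase and nucleotide supply genes split in grouped mice. Of these 7 genes, Pola1, Rrm2, Tyms and Tk1 rose by 0.46 to 0.74 in grouped mice, whereas Prim1 (primase), Pcna (the sliding clamp) and Rrm1 (the large subunit of ribonucleotide reductase) did not pass. In isolated mice all 7 rose, by 0.28 to 0.8. Some other probe sets read otherwise in grouped mice, in the test over all probe sets. Another Prim1 probe set rose by 0.46, and the other Rrm1 probe sets rose by 0.49 and 0.69. The other Pola1 probe set differed by 0.01 and did not pass, and Pcna had 1 probe set. Tyms, which makes thymidylate, had net levels of −1.19, −1.3, −1.65 and −1.27 in grouped mice at 15 weeks and −0.65, −0.59, −1.03 and −0.7 at 20 weeks. The groups did not overlap, and Tyms rose by 0.61 (SE 0.12, limma adjusted p = 0.00438). Rrm2, the small subunit of ribonucleotide reductase, had net levels of 1.94, 2, 1.84 and 2 in isolated mice at 15 weeks and 2.74, 2.63, 2.44 and 2.49 at 20 weeks. It rose by 0.63 (SE 0.08, limma adjusted p = 0.000226), again without overlap.

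Pcna gave net levels of 4.14, 4.02, 3.61 and 4.4 in grouped mice at 15 weeks and 4.35, 4.29, 4.08 and 4.16 at 20 weeks. These ranges overlapped, with a difference of 0.18 (SE 0.15, 95% interval −0.15 to 0.51, limma adjusted p = 0.365). In isolated mice its levels were 3.91, 3.88, 3.79 and 3.91 and then 4.5, 4.23, 4.22 and 4.24, a rise of 0.42 (SE 0.08, adjusted p = 0.00176). The difference between these age effects was 0.24 (SE 0.18, 95% interval −0.14 to 0.63, adjusted p = 0.605 for the interaction), so the age effects of Pcna were not shown to differ between housing conditions.

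Regulators of entry into S phase included the members with the smallest p. Ccne1, the gene of cyclin E1, an activator of Cdk2 at the G1/S boundary, had net levels of −0.66, −0.64, −0.73 and −0.5 in grouped and −0.62, −0.59, −0.65 and −0.7 in isolated mice at 15 weeks. At 20 weeks these were 0.08, −0.04, −0.01 and 0.12 in grouped and 0.19, 0.15, 0.08 and −0.03 in isolated mice. Every older array lay well above every younger one, and Ccne1 rose by 0.67 (SE 0.07, limma adjusted p = 0.00021) and by 0.74 (SE 0.06, adjusted p = 3.68e-05). Ccne2, the gene of cyclin E2, had net levels of 0.19, 0.45, −0.05 and 0.83 in grouped mice at 15 weeks and 1.53, 1.33, 0.91 and 0.93 at 20 weeks. In isolated mice its levels were 0.2, 0.11, −0.15 and 0.04 and then 1.7, 1.47, 1.43 and 1.02. It rose by 0.82 (SE 0.2, 1.76-fold, limma adjusted p = 0.0109) in grouped and by 1.36 (SE 0.13, 2.56-fold, adjusted p = 7.52e-05) in isolated mice, the largest difference of any member in either comparison of age.

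E2f1, an activating E2F factor, had net levels from −0.16 to 0.38 in grouped mice at 15 weeks and of 0.51, 0.5, 0.38 and 0.61 at 20 weeks, and rose by 0.46 (SE 0.11, limma adjusted p = 0.0101). In isolated mice it rose by 0.6 (SE 0.1, adjusted p = 0.0012). The related E2f2 did not pass in either housing, with 0.25 and 0.21 (adjusted p = 0.124 and 0.14). Mybl2, which acts with the complex that reads CHR elements, rose by 0.36 and 0.41. Of the genes of chromatin and the checkpoint, all 4 rose in both conditions: Uhrf1 (maintenance of DNA methylation) by 0.59 and 0.37, Ezh2 (a histone methyltransferase) by 0.47 and 0.62, Chek1 (the replication checkpoint kinase) by 0.35 and 0.34. Brca1, a repair gene, had net levels of 0.38, 0.35, −0.03 and 0.51 in grouped mice at 15 weeks and 1.22, 1.32, 0.95 and 1.24 at 20 weeks. These did not overlap, and it rose by 0.88 (SE 0.12, 1.84-fold, limma adjusted p = 0.000847).

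Of the mitotic members, 17 of 18 rose in grouped and 16 of 18 in isolated mice, with a median difference of 0.59 in each. The cyclins Ccna2 and Ccnb2 and the kinase Cdk1, the engine of mitotic entry, rose in both. Ccnb2 had net levels of 1.58, 1.52, 1.49 and 1.57 in isolated mice at 15 weeks and 2.56, 2.23, 2.11 and 2.05 at 20 weeks, a rise of 0.7 (SE 0.1, limma adjusted p = 0.000499) without overlap. Cdk1 had net levels of 2.2, 2.19, 1.73 and 2.38 in grouped mice at 15 weeks and 2.81, 2.61, 2.36 and 2.59 at 20 weeks. The highest younger array lay just above the lowest older one, and Cdk1 rose by 0.47 (SE 0.14, limma adjusted p = 0.0271). In isolated mice Cdk1 rose by 0.58 (SE 0.09, adjusted p = 0.000529). Foxm1, a transcription factor of mitotic genes, did not pass with its probe set of highest mean (0.16 and 0.14, adjusted p = 0.235 and 0.144).

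All 7 mitotic kinases and checkpoint genes rose in both housing conditions. Aurka, a centrosomal kinase, had net levels of 0, 0.05, −0.27 and 0.19 in grouped and −0.05, −0.13, −0.13 and −0.16 in isolated mice at 15 weeks. At 20 weeks they were 0.73, 0.58, 0.44 and 0.61 in grouped and 0.8, 0.59, 0.46 and 0.53 in isolated mice. All older arrays lay above all younger ones, and Aurka rose by 0.6 (SE 0.1, limma adjusted p = 0.00211) and by 0.71 (SE 0.08, adjusted p = 0.00011). Plk1, a kinase of mitotic entry and exit, had net levels of 0.65, 0.27, 0.13 and 0.61 in grouped mice at 15 weeks and 1.09, 1.02, 0.83 and 1.25 at 20 weeks, and rose by 0.63 (SE 0.13, limma adjusted p = 0.00536). Aurkb, the kinase of the chromosomal passenger complex, had net levels of 0.79, 0.63, 0.34 and 0.78 and then 1.12, 1.11, 0.99 and 1.17 in grouped mice, and rose by 0.46 (SE 0.1, limma adjusted p = 0.00675). Neither gene's younger and older ranges overlapped.

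Birc5 (survivin), a partner of Aurkb, had net levels of 1.1, 1.11, 1.02 and 1.01 in isolated mice at 15 weeks and 2.32, 1.82, 1.74 and 1.77 at 20 weeks, and rose by 0.85 (SE 0.12, 1.81-fold, limma adjusted p = 0.000402). Bub1, a kinase of the spindle checkpoint, had net levels of 0.21, 0.07, 0.16 and 0.08 and then 1.31, 0.96, 0.67 and 0.85 in isolated mice, and rose by 0.82 (SE 0.12, limma adjusted p = 0.000485). Both were free of overlap, with isolated replicate 1 highest at 20 weeks. Bub1b and Mad2l1, further members of the checkpoint, rose by 0.34 and 0.46 in grouped and by 0.34 and 0.52 in isolated mice.

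Among genes of mitotic chromosomes and motors, Top2a, the topoisomerase that untangles sister chromatids, had net levels of 2.38, 1.98, 1.51 and 2.32 in grouped mice at 15 weeks and 2.93, 2.9, 2.61 and 2.92 at 20 weeks. It rose by 0.8 (SE 0.18, 1.74-fold, limma adjusted p = 0.0073) without overlap, and by 0.76 (SE 0.12, adjusted p = 0.000761) in isolated mice. Mki67, the gene of the Ki-67 antigen used to stain cycling cells, had net levels of 2.92, 2.74, 2.27 and 2.99 in grouped mice at 15 weeks and 3.33, 3.45, 2.96 and 3.39 at 20 weeks, overlapping by 1 array a side, and rose by 0.55 (SE 0.16, limma adjusted p = 0.0245). In isolated mice its levels were 2.8, 2.78, 2.77 and 2.82 and then 3.5, 3.1, 2.76 and 2.97. There the older range took in the younger one, and the difference was 0.29 (SE 0.13, 95% interval −0.01 to 0.58, adjusted p = 0.094). The interaction for Mki67 was −0.27 (SE 0.22, 95% interval −0.74 to 0.21, adjusted p = 0.656), which does not separate the age effects. Cenpa (the centromeric histone), Kif11 and Kif20a (motors) rose by 0.57 to 0.61 in grouped and by 0.52 to 0.83 in isolated mice. Cdc20 and Ube2c, which act with the anaphase-promoting complex, rose by 0.65 and 0.67 in grouped and by 0.44 and 0.65 in isolated mice.

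**Figure D2:**
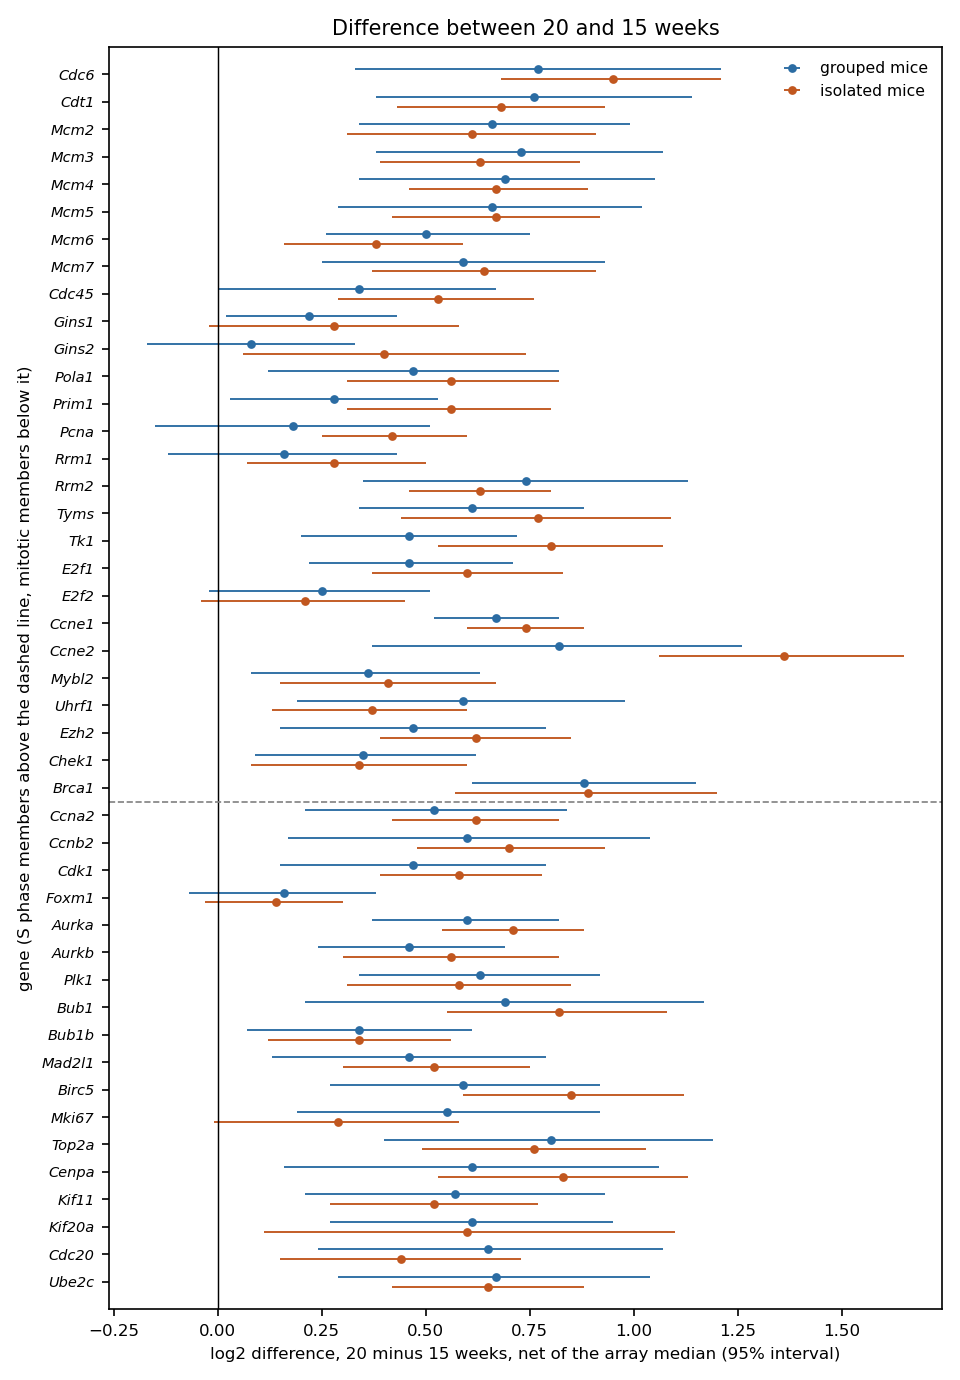
Difference in net log2 level between 20 and 15 weeks for each of the 45 members in grouped and isolated mice, with 95% intervals (4 arrays against 4). All points lie above 0; Ccne2 in isolated mice reaches 1.36, and Foxm1, E2f2 and Gins1 stay at 0.28 or below in both.

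The housing conditions share no arrays, and 36 members rose in both, 97.3% of those that rose in grouped mice and 87.8% of those that rose in isolated mice. Over all genes, 2680 rose in both, 78.4% and 56.1% of those that rose in each. With the probe sets of highest mean, Mki67 passed in grouped mice and not in isolated mice. Cdc45, Gins2, Prim1, Pcna and Rrm1 did so the other way round, but no member's interaction passed. With these probe sets Gins1, E2f2 and Foxm1 passed in neither. S phase and mitotic members differed little from each other: 20 of 27 and 17 of 18 rose in grouped mice (medians 0.5 and 0.59), and 25 of 27 and 16 of 18 in isolated mice (medians 0.61 and 0.59). The mean of the S phase members minus that of the mitotic members ran from −0.25 to −0.06 over the 16 arrays, and the ranges of the 4 groups overlapped.

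The remaining 57 probe sets named for members showed how far the choice of probe set mattered. In the same test over all 34945 probe sets with 1 symbol, 51 of them in grouped and 47 in isolated mice were higher at 20 weeks. In that direction 38 and 37 passed, and 1 and 2 passed in the other. The shares over all 34945 probe sets are not given here. With 1 probe set per gene, 51.1% and 51.7% of all genes were higher, and 18.8% and 26.2% passed as higher. The other E2f2 probe set rose by 0.6 and 0.41, and 2 further Foxm1 probe sets rose by 0.45 and 0.43 and by 0.54 and 0.5, unlike the probe sets of highest mean; another Foxm1 probe set gave 0.02 and −0.04 and did not pass. A Tyms probe set of lower mean fell by 0.32 and by 0.31, opposite to the other 3. An E2f1 probe set of lower mean differed by −0.13 in grouped mice, where it did not pass, and fell by 0.22 in isolated mice. A further E2f1 probe set differed by 0.26 in grouped mice, where it did not pass, and rose by 0.32 in isolated mice. The probe sets used for 6 members, Mcm4, Mcm5, Rrm2, Ccne1, Aurkb and Cdc20, carry the x suffix by which Affymetrix marks probes that may match other transcripts. A Ccne1 probe set without that suffix rose by 0.59 and 0.58.

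Other genes of the same processes moved the same way. Of 27 further replication genes, 19 rose in grouped and 20 in isolated mice (medians 0.41 and 0.58). The largest differences of that list were those of Dbf4, a partner of the origin-firing kinase, at 1.07 and 1.21. Of 42 further mitosis genes, 35 and 39 rose (medians 0.6 and 0.59), such as Kif4, a chromosome motor, by 0.76 and 0.67, and none fell. Of 21 regulators of G1, 7 rose and 4 fell in grouped mice and 9 rose and 3 fell in isolated mice (medians 0.05 and 0.08). The extremes of these regulators in isolated mice were Cdkn2b, an inhibitor of G1 kinases, which rose by 1.04, and Ccnd2, the gene of cyclin D2, which fell by 1.12.

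Markers of the gland's cell types differed with age over the same arrays. All 6 adipocyte markers fell in both housing conditions, with medians of −0.82 in grouped and −1.67 in isolated mice; their mean net level ran from 3.45 to 4.12 and from 3.62 to 3.81 at 15 weeks, and from 2.75 to 3.19 and from 1.73 to 2.8 at 20 weeks. Of the 10 luminal epithelial markers, 6 rose in grouped mice (median 0.4), and in isolated mice 5 rose and 2, Krt19 and Elf5, fell (median 0.17). Their mean net level ran from 2.26 to 2.67 and from 2.54 to 2.61 at 15 weeks, and from 2.69 to 2.95 and from 2.54 to 2.82 at 20 weeks, so that the keratin and claudin signal of the labelled tissue was present in every array. Of 6 basal markers, 2 rose in grouped mice, and 3 rose and 2 fell in isolated mice. Of 7 muscle markers, 6 fell in isolated mice and none passed in grouped mice. Of 8 macrophage markers, 3 fell in grouped mice and 3 rose in isolated mice. Of 6 fibroblast markers, 3 fell in grouped mice (median −0.65) and none passed in isolated mice; of 5 endothelial markers, 1 fell in grouped mice (median −0.23) and 4 fell in isolated mice (median −0.65). Of 10 lymphocyte markers, none passed in grouped mice (median −0.51) and 1 fell in isolated mice (median 0.06). The part of these shifts in cell types in the rise of the members was not tested.

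Housing gave no call for any member at either age. At 15 weeks 0 of the 45 passed (limma, 8 of all genes, 0.044%), 0 had an unadjusted p under 0.05 (9.7% of all genes) and 0 had isolated and grouped arrays without overlap (5.69% of all genes). The differences, isolated minus grouped in deposited log2 levels, ran from −0.31 to 0.09 with a median of −0.03. All 45 of their 95% intervals covered 0, and 43 lay within 0.5 of 0 on either side. At 20 weeks 0 passed (limma, 2 of all genes, 0.011%) and 0 had an unadjusted p under 0.05 (8.49% of all genes), with differences from −0.21 to 0.25 and a median of 0.01. All 45 intervals again covered 0, and 39 lay within 0.5 of 0. The other replication genes, other mitosis genes and G1 regulators gave 0 calls for housing as well.

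The member with the smallest p at 15 weeks was Ccne2. Its deposited levels were 9.06, 9.32, 8.82 and 9.75 in grouped and 9.06, 8.98, 8.71 and 8.94 in isolated mice. The ranges overlapped, the grouped arrays reached higher and the lowest array was an isolated one, and the difference was −0.31 (SE 0.17, 95% interval −0.68 to 0.06, limma adjusted p = 0.552). Prim1, Gins2 and Pcna came next among the S phase members at −0.17, −0.15 and −0.17 (adjusted p = 0.608, 0.619 and 0.677). Among the mitotic members these were Aurka (−0.12, adjusted p = 0.66), Ccna2 (−0.1), Plk1 (0.09) and Birc5 (−0.1). Mki67 differed by 0.06, Top2a by 0.01, Mcm2 by 0.01, Cdk1 by −0.03 and E2f1 by −0.07, each with an SE from 0.11 to 0.16.

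At 20 weeks the smallest p among members was that of Tk1, the salvage kinase of thymidine. Its deposited levels were 10.2, 10.17, 10.08 and 10.16 in grouped and 10.78, 10.27, 10.23 and 10.32 in isolated mice. All isolated arrays lay above the grouped ones, replicate 1 by far the most, which made Tk1 the 1 member without overlap (4.2% of all genes). The difference was 0.25 (SE 0.12, 95% interval −0.01 to 0.51, limma adjusted p = 0.592). Mcm6 followed at −0.14, Ccne2 at 0.23 and Gins2 at 0.18 (adjusted p = 0.698, 0.7 and 0.742). The mitotic members with the smallest p were Cdc20 (−0.19), Mki67 (−0.21), Birc5 (0.16) and Kif11 (−0.12). Mki67 had deposited levels of 12.42, 12.57, 12.08 and 12.48 in grouped and 12.55, 12.19, 11.87 and 12.1 in isolated mice, overlapping ranges with a 95% interval of −0.55 to 0.14 for the difference. Top2a, Mcm2, Pcna, Cdk1 and E2f1 differed by −0.03, −0.04, 0.07, 0.08 and 0.07.

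**Figure D3:**
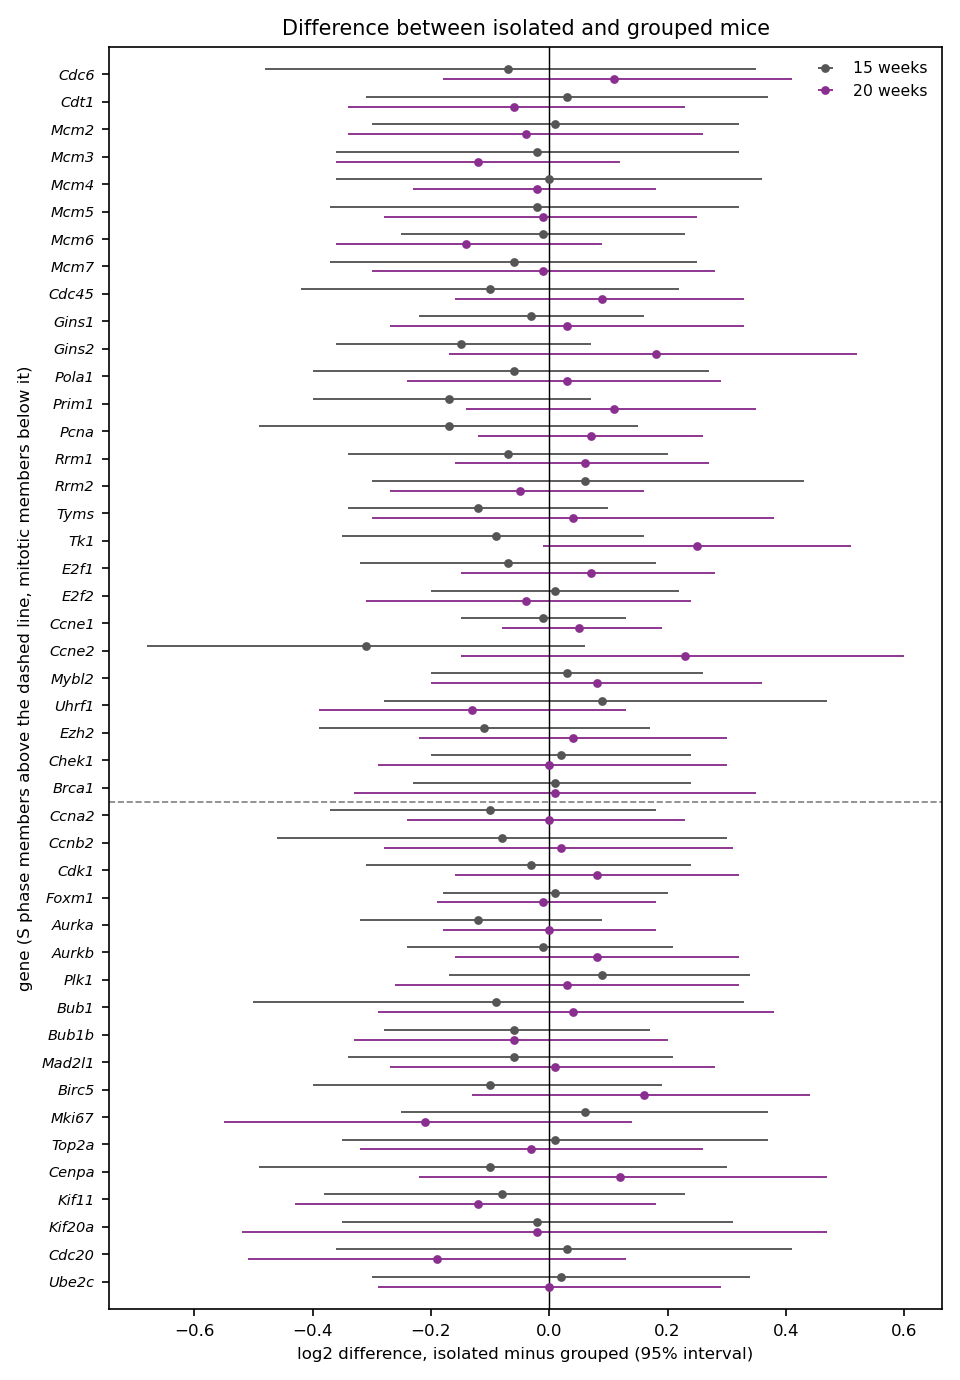
Difference in deposited log2 level between isolated and grouped mice for each of the 45 members at 15 and at 20 weeks, with 95% intervals (4 arrays against 4). Every interval crosses 0, and the points run from −0.31 to 0.25.

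Whether the change with age depended on housing was tested as an interaction over all 16 arrays. It passed for 0 of the 45 members (limma, 2 of all genes, 0.011%), and 0 had an unadjusted p under 0.05 (12.7% of all genes). The largest was that of Ccne2, at 0.54 (SE 0.26, 95% interval −0.01 to 1.09, limma adjusted p = 0.398), followed in p by Tk1 at 0.34 (adjusted p = 0.424) and Prim1 at 0.27 (adjusted p = 0.503). The intervals were wide: 22 of the 45 lay within 0.5 of 0, and the others reached past it on at least 1 side.

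Within a group the members moved together from array to array. Grouped replicate 3 at 15 weeks was the lowest of its group for 45 of 45 members (32.4% of all genes), and replicate 4 the highest for 41 (38.3%). At 20 weeks grouped replicate 3 was lowest for 41 members (27.6% of all genes), and isolated replicate 1 was highest for 43 (32.5%). S phase and mitotic members shared these extremes: isolated replicate 1 was highest for 25 of 27 and 18 of 18. The spread was widest in grouped mice at 15 weeks, with a median member SD of 0.32, against 0.06 in isolated mice at 15 weeks, 0.16 in grouped and 0.23 in isolated mice at 20 weeks. Over all genes these medians were 0.11, 0.08, 0.09 and 0.11. All 45 members had a larger SD in grouped than in isolated mice at 15 weeks (69.3% of all genes), and 10 did at 20 weeks (37.4% of all genes). The difference in spread itself was not tested.

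**Figure D4:**
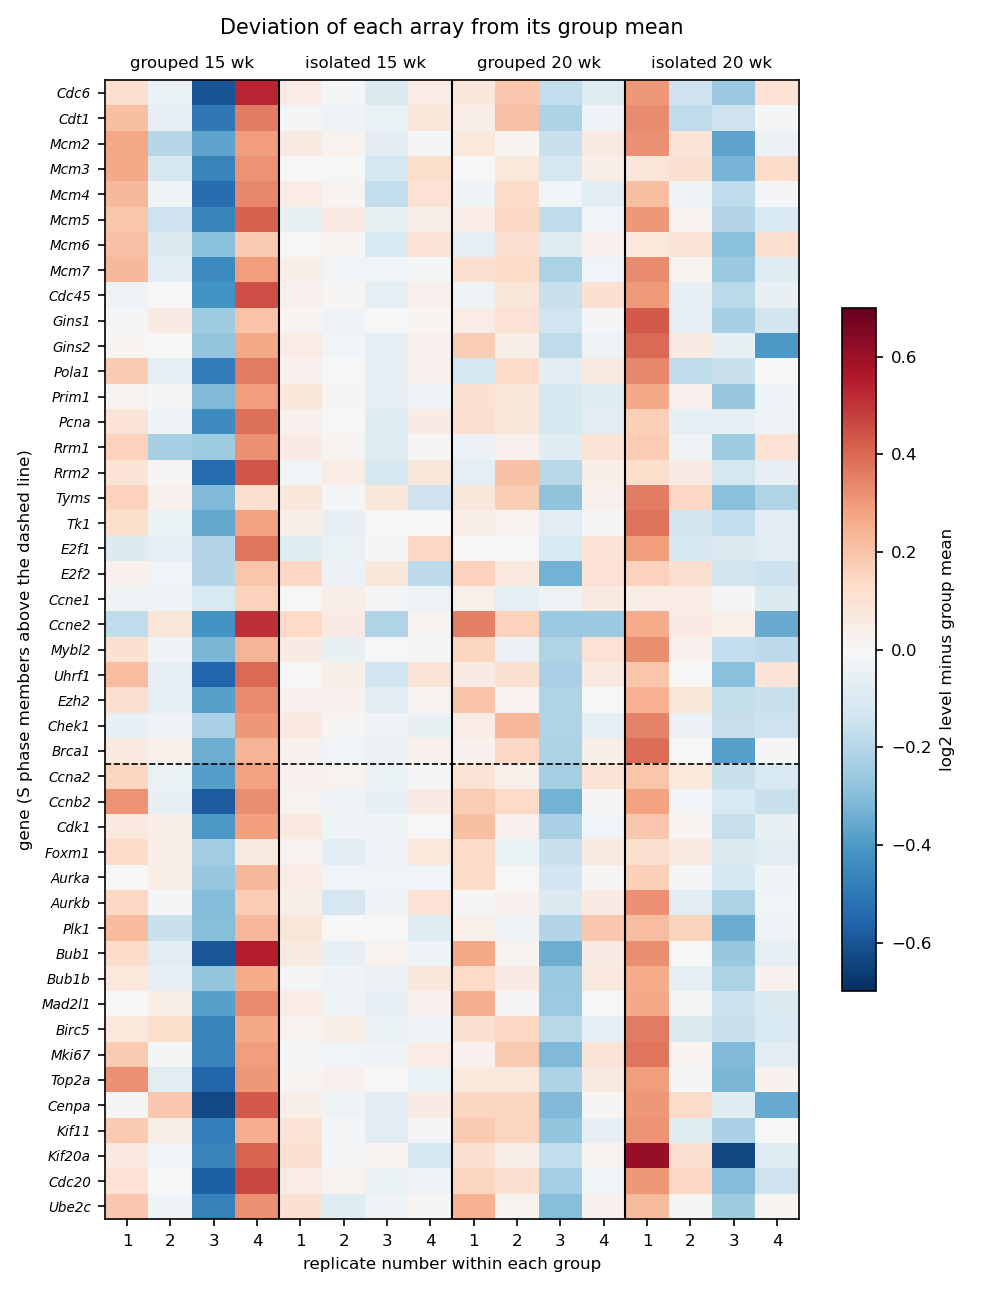
Deviation of each array from the mean of its group, in log2 units, for the 45 members (rows) and 16 arrays (columns). Single columns are nearly uniform in colour, as for grouped replicate 3 at 15 weeks, lowest for 45 of 45 members, and isolated replicate 1 at 20 weeks, highest for 43.

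Markers were again read on the same arrays. In grouped mice at 15 weeks the luminal markers had their lowest mean net level in replicate 3 (2.26) and their highest in replicate 4 (2.67), and the adipocyte markers their highest in replicate 3 (4.12). In isolated mice at 20 weeks the luminal markers stood at 2.74 in replicate 1, inside the range of 2.54 to 2.82 of that group, while replicate 1 was the lowest of that group in adipocyte (1.73), muscle (3.38), endothelial (−0.42), fibroblast (3.27) and macrophage markers (1.45). Grouped replicate 3 at 20 weeks, lowest for 41 members, was the highest of its group in macrophage markers (2.27 against 0.91 to 1.41) and fibroblast markers (4.08 against 2.88 to 3.35), and the lowest in luminal markers (2.69). Grouped replicate 1 at 15 weeks stood apart in lymphocyte markers, with a mean net level of 0.14 against −1.12 to −1.08 in the other arrays of the group; it was lowest for 0 and highest for 4 members. Isolated replicate 3 at 20 weeks, lowest for 34 members, had lymphocyte markers at −0.49 against −1.34 to −1.13 in the other arrays of its group. The part of these cell type markers in the members' spread was not tested.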

How the data were processed

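The deposited values are log2 expression levels that the authors made with RMA in affy (version not stated), per the submitters' processing notes; earlier steps are not given in the sources used here. Of 45101 probe sets, 34945 carried 1 gene symbol in the platform annotation, and the probe set of highest mean stood for each of 18193 genes. No level filter was used. Groups were compared with limma 3.58.1 in R 4.3.3 (lmFit, eBayes with intensity trend, Benjamini-Hochberg over all genes, threshold 0.05): housing on the 8 arrays of an age, age on the 8 arrays of a housing condition after each array was centred on its median over the genes tested, and the interaction on all 16 arrays. Precision rests on 4 arrays per group. The labels number replicates and do not say outright that each is its own mouse; p-values reflect only how these arrays scatter, which may be technical. No 2 arrays of the same group were duplicates, and pairs from different groups were not checked for this. The members and lists were chosen with earlier results of these data known. Genes named with full values were the 4 S phase and 4 mitotic members of smallest p in each comparison of 2 groups, 3 for the interaction, and Mki67, Top2a, Mcm2, Pcna, Cdk1 and E2f1 throughout. Other genes are given by role. The further probe sets of Tyms, E2f1, E2f2, Foxm1, Mcm2, Gins1, Gins2, Cdc45, Prim1, Rrm1 and Pola1, like the Krt19 and Elf5 markers, were picked after their values were seen. The code was tested on simulated data. Promoter windows are from RefSeq (GRCm38.p6). Alternatives were quantile and loess normalization, no centring, a filter at the 40th percentile, the probe set of largest variance, other eBayes settings, a replicate block, RNA quality covariates, all arrays in a fit and leaving out each array.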

Additional observations from a re-analysis of the deposited data

Results flagged for a closer look

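Single arrays stood apart from the other 3 of their group, by Dixon's gap test, in 10 of the 180 combinations of member and group; chance gives about 1 in 20. The values are deposited log2 levels. In isolated mice at 20 weeks, replicate 1 was high for Pcna (13.56, next 13.36), Tk1 (10.78, next 10.32), E2f1 (9.96, next 9.59) and Birc5 (11.37, next 10.91), and replicate 3 was low for Mcm3 (11.28, next 11.69) and Mcm6 (12.3, next 12.66). In grouped mice at 20 weeks, replicate 3 was low for Uhrf1 (11.28, next 11.56) and Top2a (11.73, next 12.01). In isolated mice at 15 weeks, replicate 3 was low for Ezh2 (10.36, next 10.46) and replicate 1 high for Aurka (8.81, next 8.74).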

How the results depend on the processing

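Counts of members called for housing at 15 weeks, housing at 20 weeks and the interaction stayed at 0 under every alternative run. The count for age in grouped mice was 37, 23 to 40 with 1 array left out, and 45 without centring. With the Gapdh 3′ minus 5′ difference as a covariate it was 3, and 2006 of all genes passed there, against 6799. Medians in that fit were 0.49 and 0.52 for S phase and mitotic members, against 0.5 and 0.59. The median SE was 0.22 against 0.15. The count for age in isolated mice was 41, 36 to 42 with 1 array left out and 37 to 45 otherwise. Without centring, the median difference of the S phase members with age was 0.72 in grouped mice and 0.83 in isolated mice, and that of the mitotic members in isolated mice 0.82. With all members in the fit, the age difference was positive for at least 26 of 27 S phase and 18 of 18 mitotic members in grouped mice, and for all 45 in isolated mice. Without grouped replicate 3 at 15 weeks, the housing medians at 15 weeks were −0.18 (S phase) and −0.17 (mitotic). The calls of Mki67 and Cdk1 with age in grouped mice were each lost in 5 of 19 alternatives (adjusted p from 0.00303 to 0.215 and from 0.00272 to 0.197). With the replicate number as a block, the age calls numbered 40 (grouped) and 41 (isolated), with 0 for housing or interaction. Deviations of equally numbered arrays correlated between −0.2 and 0.49, with no comparison above 0.1 throughout. These correlations cannot settle whether equally numbered arrays share more than a number. With 4 arrays per group, the 95% intervals of housing differences reached −0.68 at 15 weeks and 0.6 at 20 weeks.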
